A study of Mus musculus with 143 samples.

Results

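The genes described here encode the subunits, activators, inhibitor and assembly chaperones of the proteasome. They were chosen by name: protein-coding genes whose mouse symbol begins with Psma, Psmb, Psmc, Psmd, Psme, Psmf or Psmg and a digit, with 4 pseudogene names left out. The rule gave 50 genes among 55573 gene identifiers counted in poly(A) libraries and 55487 counted in RiboMinus libraries. Of the 50 genes, 8 encode alpha ring and 7 encode standard beta ring subunits of the 20S core, 3 encode immunoproteasome beta subunits (Psmb8, Psmb9, Psmb10), and Psmb11 encodes the beta subunit known from the thymus. The 19S cap is represented by 6 ATPases, 11 non-ATPase subunits and 3 assembly chaperones, and the rest are 4 activators, the inhibitor Psmf1, 4 chaperones of 20S assembly and 2 genes outside these roles. One of the latter, Psmc3ip, meets the letters of the rule but encodes a factor of meiotic recombination. It is included in the counts of members below, and the numbers of calls in each comparison that change without it are given with the methods. Other counts, such as those of motifs, of shared calls and of members without overlap, are given with it only. The other, Psme2b, is a near copy of Psme2 and had no read in any library.

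The proteasome is a barrel of stacked rings that cleaves proteins marked with ubiquitin. The alpha rings form its gate, the beta rings hold the cleaving sites (Psmb5, Psmb6 and Psmb7 in the standard core), and the 19S cap binds ubiquitin chains, removes them and threads the protein into the barrel with its ATPases. In oocytes the complex is known for degrading cyclin B and securin at the meiotic divisions. A full-grown oocyte makes almost no new RNA, and its stored messages are lengthened, shortened or removed as it matures to the egg.

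The study compared oocytes of control mice with oocytes of mice that carried a conditional knockout, cKO, for Dis3 or for Exosc10, or a double one for both genes, dcKO. DIS3 and EXOSC10 are ribonucleases of the nuclear RNA exosome, which trims and degrades RNA. Single-oocyte poly(A) libraries came from oocytes at the germinal vesicle (GV) stage, from GV oocytes after 3 h of culture (GV3h) and from metaphase II (MII) eggs taken from oviducts after superovulation, each with 8 control libraries and 15, 16 and 16 Dis3 cKO libraries. Single-oocyte RiboMinus libraries, from which ribosomal RNA was removed and which were primed with random hexamers, came from adult GV oocytes of control and Dis3 cKO mice and, at postnatal day 20 (p20), from control mice and each of the 3 mutants, with 8 libraries in each group. Pooled oocytes were profiled by CUT&Tag for RNA polymerase II (Pol II) and for the repressive histone mark H3K27me3, with 3 libraries in each group. The labels give the mutants as made with CRISPR/Cas9 and do not give the strain, the driver of recombination, or which oocytes came from which animal, so p-values here measure the spread between oocytes.

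Libraries held 4843964 to 15412200 gene counts with poly(A) selection and 8492102 to 35429028 with RiboMinus. Dis3 averaged 13.1 ± 2.89 CPM (counts per 1000000 after TMM scaling within an assay, mean ± SD) in 8 GV control and 2.87 ± 1.41 in 15 GV Dis3 cKO libraries, and it was called lower in all 6 comparisons of a Dis3 cKO or dcKO group with its control (log2 fold changes -2.18 to -3.63). Exosc10 fell from 117.2 ± 12.02 CPM in p20 controls to 3.12 ± 3.35 in Exosc10 cKO and 7.25 ± 4.47 in dcKO (n = 8 each). All 10 oocyte markers averaged at least 1 CPM in every group. The summed level of 11 granulosa and cumulus markers lay between 42.67 and 195.5 CPM in all libraries. The summed level of 9 blood and immune markers, cells known for immunoproteasome subunits, was 1.346 to 3.509 CPM in p20 controls and 0.482 to 3.669 in Exosc10 cKO, but 9.095 to 35.55 in p20 Dis3 cKO and 13.43 to 23.87 in dcKO. Of these 9 markers H2-Aa alone averaged at least 1 CPM in the first 3 of these groups, and H2-Aa and Cd68 did in dcKO. The part of these cells in the p20 results was not tested. MII Dis3 cKO oocyte 15 stood apart, with a median correlation of 0.776 with its group, as did GV Dis3 cKO oocytes 6 and 8 (0.877 and 0.848). MII Dis3 cKO oocytes 7 and 11 were the next lowest of their group (0.903 and 0.927).

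Most of the complex was present in every oocyte. In poly(A) data 37 of the 50 members had at least 1 CPM in all 71 libraries, and in RiboMinus data 39 did in all 48. The immunoproteasome subunits were close to absent: Psmb8 averaged 0.215 ± 0.297 CPM in GV controls and was at 0 in 4 of 8 libraries, Psmb9 averaged 0.157 ± 0.230 and was also at 0 in 4 of 8, and Psmb10 averaged 0.987 ± 1.01. Psma8, the alpha subunit known from the testis, averaged 0.2502 ± 0.408 CPM in GV controls and had no read in any p20 control library, and the activator Psme1 averaged 0.770 ± 0.804 in GV controls. Low expression kept Psma8, Psmb8, Psmb9 and Psme2b out of the poly(A) tests, in which 46 members of 17389 genes were tested, and kept Psmb10 and Psme1 out of the RiboMinus tests as well, in which 44 members were tested.

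The starts of these genes were examined with the deposited peak lists and the promoter sequences. Among 42 members with a start in RefSeq GRCm38.p6, an H3K27me3 peak within 1000 bases of the start was listed for 10.3% ± 2.75 (SD, n = 3 libraries) in adult controls and 11.9% ± 2.39 in p20 controls, against 22.4% and 25.7% of all protein-coding genes. The members with such a peak in at least 2 of 3 libraries of a group were Psmb8, Psmb9, Psme1 and Psme2b, each of which averaged under 1 CPM in every group. Psmb9 had the peak in all 12 H3K27me3 libraries and Psmb8 in 11 of them. Pol II peaks at starts were listed for 10.3% ± 5.52 of members in adult controls, 17.5% ± 5.99 in p20 controls and 20.6% ± 8.38 in adult Dis3 cKO, against 4.32%, 10.5% and 10.4% of all genes, and the lists held from 19697 to 122606 peaks, for which the shares were not adjusted. Psmg1 had a Pol II peak in all 9 libraries, and Psmb11 and Psma7 each had one in 7 of 9. Peak calls are the authors' own, made for each library separately.

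Of 6 motifs searched on both strands around each start, the ETS motif CCGGAAG had the largest difference in share between members and all genes. It stood in a window of 15 of 42 members (35.7%) and of 12.9% of 17492 protein-coding genes, or in 35.6% of 45 member windows and 11.6% of 21263 windows in all. Counted by gene, the core of the antioxidant response element, TGACNNNGC, stood in 14.3% of members against 14.8% of genes, CCAAT in 35.7% against 42.3%, TATAAA in 9.52% against 14.8%, the palindrome bound by nuclear respiratory factor 1 in 4.76% against 1.47%, and the YY1 motif in 2.38% against 1.06%. The windows run from 250 bases before to 50 after the start. A match is a description of the sequence and not a bound site. For Psmd2 the match stood before a downstream start, inside the annotated gene. Stretches before the start are printed for the members that the results below turn on, from RefSeq GRCm38.p6 in the direction of the gene, with the motif or its reverse complement CTTCCGG in capitals, and for Psmb5 with TGACNNNGC in capitals.
Psmd4, chr3:95042717-95042755, minus strand: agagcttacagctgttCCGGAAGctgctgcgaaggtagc
Psmc2, upstream start, chr5:21785175-21785213, plus strand: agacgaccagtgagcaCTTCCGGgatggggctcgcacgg
Psmc2, downstream start, chr5:21786707-21786745, plus strand: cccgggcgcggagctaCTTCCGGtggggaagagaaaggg
Psmc1, chr12:100110158-100110196, plus strand: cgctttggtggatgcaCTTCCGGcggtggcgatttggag
Psmd2, chr16:20651610-20651648, plus strand: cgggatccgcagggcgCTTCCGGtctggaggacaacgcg
Psmd11, chr11:80428588-80428614, plus strand: gaacgcgagggcgggtCTTCCGGgtgt
Psmg1, chr16:95991007-95991045, minus strand: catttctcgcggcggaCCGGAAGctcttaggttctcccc
Psmb5, chr14:54618018-54618058, minus strand: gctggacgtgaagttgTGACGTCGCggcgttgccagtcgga

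The first comparison asked how poly(A) RNA of the proteasome genes differed between GV oocytes and mature eggs. In controls the 7 beta ring genes ran from a log2 change of -5.05 for Psmb5 to -0.03 for Psmb3, and the 6 ATPases from -3.26 to -0.40, while a few other genes of the same complex were higher in eggs. At an adjusted p under 0.05 by the quasi-likelihood test of edgeR and Benjamini-Hochberg correction over all genes, here named a call, 32 of 46 members were lower and 6 higher in MII than in GV controls, where 35.8% of all genes were lower and 22.7% higher, 58.5% together. The members' median log2 change was -1.56, beside -0.27 for all genes. By role, 6 of 7 beta ring genes, 6 of 6 ATPases, 6 of 11 other 19S subunits, 5 of 7 alpha ring genes tested and 3 of 4 chaperones of 20S assembly were lower. The summed blood and immune markers lay at 2.906 to 76.36 CPM in GV controls and 9.391 to 21.55 in control eggs (medians 49.3 and 16.1), and at 20.37 to 80.39 and 5.623 to 75.75 in Dis3 cKO, and their part in the results of maturation was not tested. Of the 9 markers H2-Aa alone averaged at least 1 CPM in GV controls. In control eggs and in both Dis3 cKO groups H2-Aa and Cd68 did. In an oligo-dT library less RNA and a shorter poly(A) tail cannot be told apart.

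Psmb5 (ENSMUSG00000022193), the subunit with chymotrypsin-like activity, had 27.7 to 50.1 CPM in the 8 GV control oocytes (median 36.1) and 0 to 2.14 in the 8 control eggs (median 1.16). The groups did not overlap (log2 fold change -5.05 ± 0.41 SE, edgeR adjusted p = 6.11e-18). Psmb7, which carries the trypsin-like site, went from 220.6 ± 59.5 to 15.4 ± 3.71 CPM, and Psmb6, which carries the caspase-like site, from 240.0 ± 71.1 to 123.2 ± 15.2 CPM. The 3 catalytic subunits were thus lowered to different degrees, by -5.05, -3.84 and -0.96 on the log2 scale. Psmb1 and Psmb4, beta subunits without a cleaving site, were lower as well (-4.11 and -3.91). Psmd13, a 19S lid subunit (-3.87), and Psmg2, a chaperone of 20S assembly (-5.82), were lower but started from low levels: Psmg2 had 255 reads in all GV controls and 4 in all MII controls. Psmb11 averaged 3.20 ± 1.59 CPM in GV controls and 0.610 ± 1.26 in control eggs, where 6 of 8 libraries were at 0.

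The genes that were higher in control eggs were Psmd1, Psmd3, Psme4, Psma7, Psmd11 and Psme3. Psmd1, the large scaffold of the 19S base, had 160.1 to 213.6 CPM in GV controls and 477.4 to 610.8 in control eggs (log2 fold change 1.53 ± 0.11 SE, adjusted p = 9.45e-20 with edgeR). Psma7 (ENSMUSG00000027566, chromosome 2), an alpha ring subunit, had 662.7 to 902.6 CPM (median 722.4) in GV controls and 1399 to 2022 (median 1638) in control eggs, again without overlap. Psme4, known as PA200, rose from 375.7 ± 41.9 to 840.2 ± 166.2 CPM, Psmd3 and Psmd11 of the lid by 1.36 and 0.96 on the log2 scale, and Psme3, the nuclear activator PA28 gamma, by 0.36. Psmd4, the ubiquitin receptor, was lower (363.1 ± 39.4 to 117.7 ± 8.40 CPM), as were Psmd14, the deubiquitinase of the lid (59.1 ± 12.6 to 11.6 ± 4.03), Psmf1 (218.5 ± 17.3 to 61.1 ± 9.78) and Psmc3ip (58.9 ± 9.90 to 24.8 ± 6.84). For 31 of the 46 members tested the libraries of the control groups did not overlap, against 28.4% of all genes.

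**Figure D1:**
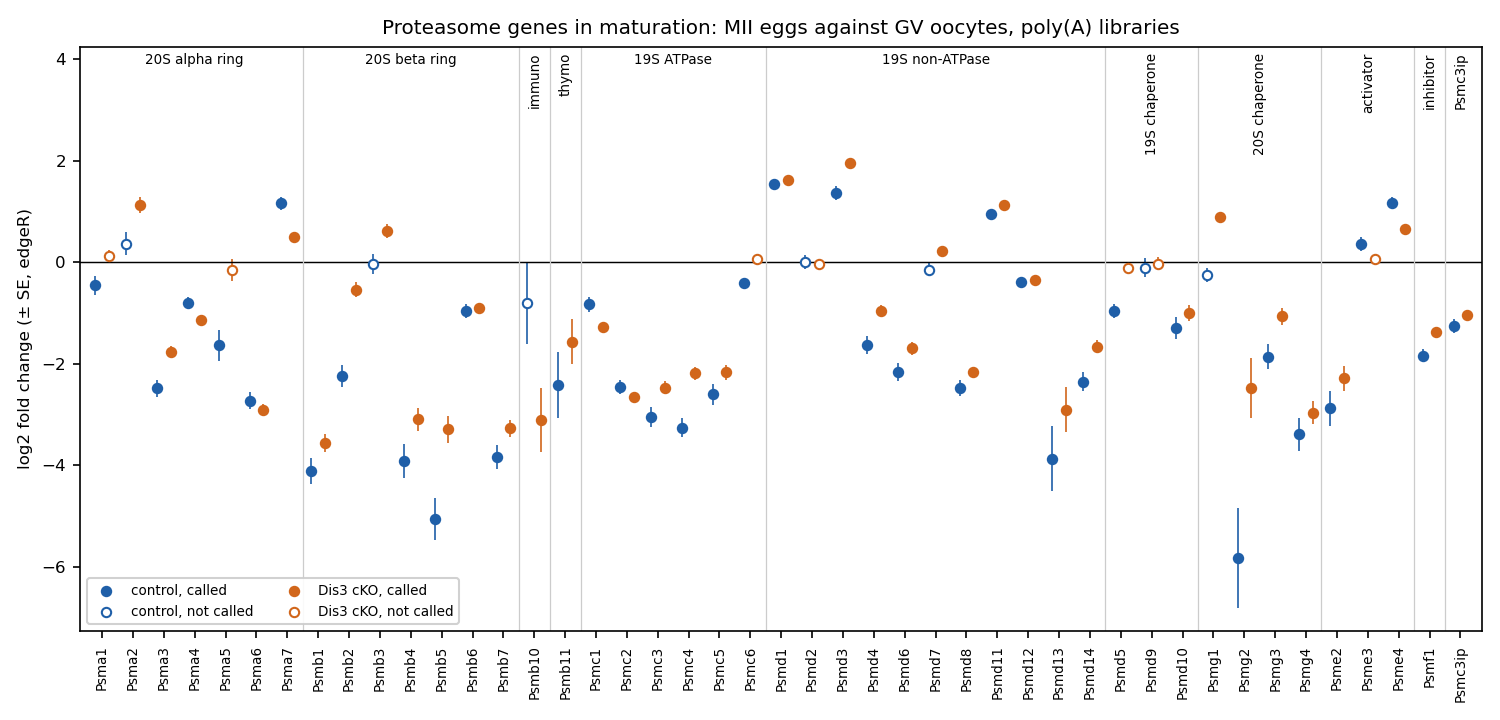
Log2 fold change between MII eggs and GV oocytes with its standard error for the members tested in poly(A) libraries, in control (blue) and Dis3 cKO (orange) oocytes, ordered by role. Filled points passed an adjusted p of 0.05. Most beta ring and ATPase genes lie well under 0 in both genotypes and Psmd1, Psmd3, Psmd11, Psma7 and Psme4 lie above 0 in both. Psme1 is left out because all 16 Dis3 cKO eggs had no read of it.

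These directions hold for the share of a library's RNA. When libraries were scaled to the ERCC RNA added to each lysate, the median gene fell by 2.12 on the log2 scale in control maturation, 0 members were higher and 45 of 46 lower, and the members' median was -3.41. The member not called on that scale was Psmd1, at -0.33. Psmd3, Psma7, Psme4 and Psmd11 were lower, with log2 changes of -0.50, -0.71, -0.69 and -0.91, which are closer to 0 than that of the median gene. The summed CPM of all members hid this exchange: it averaged 7430.0 ± 894.2 in GV controls and 6508 ± 751.6 in control eggs, a log2 difference of -0.19, while member counts per ERCC count went from 1.04 ± 0.138 to 0.2501 ± 0.0308. Reads of 3 genes chosen after their values were seen, Psma2, Psma7 and Psme4, made up 24.6% of the members' summed CPM in GV controls and 52.6% in control eggs. Culture for 3 h gave 1 call in controls, Psmd3, the gene of a lid subunit (76.9 ± 10.9 to 116.9 ± 13.7 CPM, log2 fold change 0.61 ± 0.13 SE, adjusted p = 0.00389 with edgeR), where 1.14% of all genes were called higher and 1.56% lower, 2.71% together. The call of Psmd3 was lost with ERCC scaling, where 0 members were called. A fit of these 2 groups alone called 9 members, of which 6 were higher and 3 lower. Psmd3 and Psmf1 were the 2 members without overlap, where 1.78% of all genes had none. Psmf1 had 189.6 to 243.6 CPM in GV controls and 262.7 to 325.6 in GV3h controls. DESeq2 called Psmd3, Psmf1 and Psmc6.

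**Figure D2:**
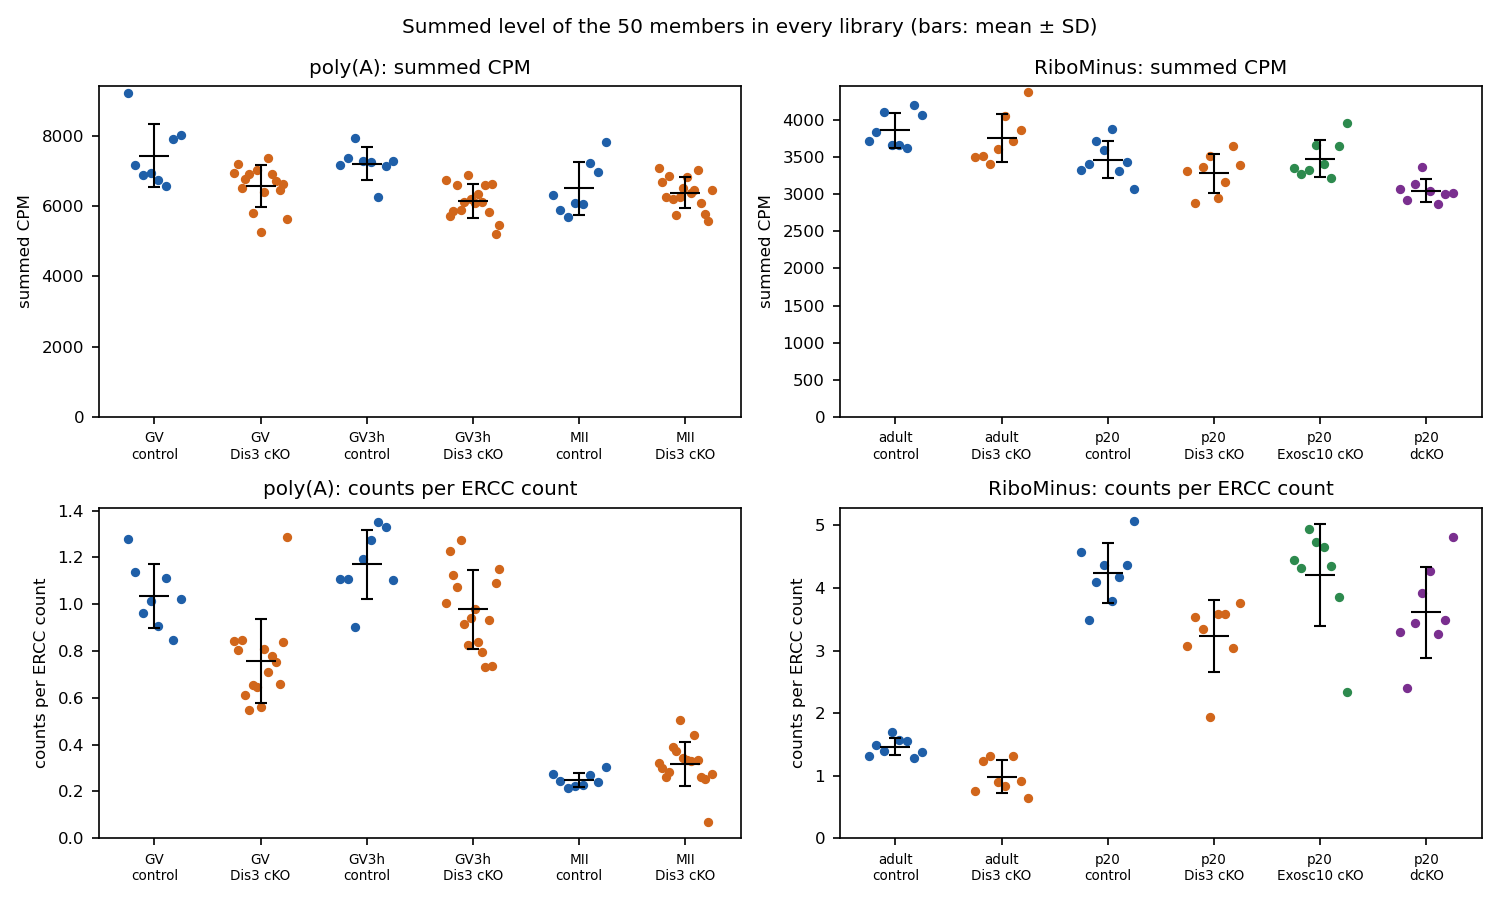
Summed CPM of the 50 members (top) and their counts per ERCC count (bottom) in every poly(A) library (left) and RiboMinus library (right), with group means and SDs. Summed CPM stays between 5193 and 9216 in all poly(A) libraries, while counts per ERCC count are lower in MII than in GV and GV3h libraries.

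The next question was how the loss of Dis3 changed these genes at each stage. In GV oocytes the changes were small and mostly downward: 9 members were called lower and 1 higher, where 8.33% of all genes were called lower and 13.6% higher, and the members' median log2 change was -0.20 beside 0.04 for all genes. The lowered genes were the ATPases Psmc4, Psmc2 and Psmc6, the 19S subunits Psmd2, Psmd4, Psmd3, Psmd1 and Psmd12, and the catalytic Psmb6, with log2 fold changes from -0.51 to -0.24. All 6 ATPases and all 7 beta ring genes had negative values, of which 3 and 1 were called. These genes share libraries and scaling, so their signs are not independent. The median log2 change was -0.25 for the ATPases, -0.24 for the other 19S subunits and -0.27 for the beta ring, and differences between roles were not tested. The gene that rose was Psmd7, a lid subunit (0.31 ± 0.11 SE, adjusted p = 0.0358 with edgeR). It was not called without a filter on low counts, in a fit of these 2 groups alone or with ERCC scaling. Psmb6, Psmc2, Psmc4, Psmd2 and Psmd3 were called under all 6 alternatives tried. Under ERCC scaling the median gene was at -0.23, 13 members were lower and 0 higher. The summed granulosa and cumulus markers lay at 97.34 to 190.1 CPM in GV controls and 68.51 to 164.6 in GV Dis3 cKO (medians 119.9 and 87.6, with 9 and 7 of 11 markers averaging at least 1 CPM), and at 70.89 to 109.0 and 42.67 to 90.07 after culture (medians 86.4 and 68.1, with 4 and 5 markers). The part of these cells in the GV and GV3h results was not tested.

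Psmd2 (ENSMUSG00000006998, chromosome 16), a large subunit of the 19S base, had 83.5 to 106.7 CPM in GV controls (median 98.8) and 54.1 to 84.2 in GV Dis3 cKO (median 66.1), so that the groups barely overlapped (log2 fold change -0.51 ± 0.12 SE, adjusted p = 0.000613 with edgeR). Psmc4 had 144.8 to 200.4 CPM in controls and 80.9 to 143.9 in the knockout and was the only member without overlap, where 3.16% of all genes had none. Psmb5 (37.2 ± 8.68 in controls and 26.7 ± 3.27 in the knockout), Psmb7, Psmd14, Psme3, Psme4, Psmf1, Psmb10, Psmb11 and Psmc3ip were not called. A fit of the GV groups alone called 13 members, all lower, among them Psmb5, Psmb4, Psmc5 and Psmd6. In oocytes cultured for 3 h, 14 members were lower and 4 higher (all genes 15.7% and 22.9%), with a members' median of -0.22 beside 0.07. Of the 9 genes lowered in GV oocytes, 6 were also lowered in GV3h oocytes (Psmc2, Psmc4, Psmd1, Psmd2, Psmd3 and Psmd4), and the 2 comparisons share no library. They are 66.7% of the 9 and 42.9% of the 14, and the same shares over all genes were 70.2% and 37.3%. With ERCC scaling Psmc4 was not called in GV3h oocytes.

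Among called members Psmd2 again had the largest decrease in GV3h oocytes (127.5 ± 14.5 CPM in controls and 83.3 ± 8.01 in the knockout, log2 fold change -0.61 ± 0.12 SE, adjusted p = 1.52e-05 with edgeR). It was followed by Psmc2 (-0.56), Psmd3 (-0.50), Psmb7 (-0.44) and Psmc5 (-0.42). Psmb7 was not called with ERCC scaling or without a filter on low counts. Under all 5 alternatives tried 10 of the 18 members were called, among them Psmd2, Psmc2, Psmd3, Psmc5, Psmd13, Psmb11 and Psmd7. The genes that rose were Psmd13, Psmb11, Psmd7 and Psmc3ip, of which Psmc3ip was not called with ERCC scaling. Psmd13 had 3.75 to 9.76 CPM in the 8 controls and 5.07 to 37.7 in the 16 knockout oocytes (medians 5.96 and 20.7), and Psmb11 had 1.04 to 4.72 and 4.65 to 11.7 CPM (medians 2.64 and 6.56). Psmd7, with 78.9 to 111.3 CPM in controls and 124.6 to 182.5 in the knockout, was the only member without overlap, where 9.3% of all genes had none. The interaction test with edgeR, which asked whether a member's response differed between GV3h and GV oocytes, called 0 of 46 (3 had an unadjusted p under 0.05), and DESeq2 also called 0. A fit of the 4 compared groups alone called Psmb5, Psmd13 and Psmg2, each with a higher response in GV3h oocytes. Of all genes 1.37% had a higher and 0.667% a lower interaction, 2.04% together.

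In MII eggs the pattern was mixed, with 15 members higher and 9 lower in Dis3 cKO eggs, where 27.3% of all genes were higher and 14.8% lower. The members' median log2 change was 0.26 beside 0.16 for all genes. Among called members the largest increases were those of Psmb2 and Psmb5 of the beta ring, Psma5 of the alpha ring and the chaperones Psmg1 and Psmg3. The highest Psmb5 values came from knockout eggs 7 and 11 (8.63 and 10.6 CPM). The largest decreases among called members, leaving out Psme1, were those of Psma7, Psmc1, Psmc2 and Psmd2. Psme4 (-0.51) and Psme3 (-0.28) were also lower, and Psmf1 (0.29) and Psmd14 (0.53) were higher. Psmb6 (-0.28) was lower, and Psmb7 (0.30), Psmd4 (0.25), Psmb11 (1.18), Psmc3ip (0.26), Psmg2 (2.18) and Psmb10 (-1.62) were not called. Psme1 was called lower but had 21 reads in 1 of 8 control eggs and none in the other libraries, and Psmb10 was at 0 in 12 of 16 knockout and 5 of 8 control eggs. Under ERCC scaling the median gene was at 0.52, 26 members were higher and 3 lower. The summed granulosa and cumulus markers lay at 103.8 to 147.8 CPM in control eggs and 58.6 to 93.77 in Dis3 cKO eggs, with 4 and 3 of 11 markers averaging at least 1 CPM, and their part in these results was not tested.

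Psma7 stood at 1399 to 2022 CPM in control eggs (median 1638) and at 597.8 to 1327 in Dis3 cKO eggs (median 883.6), without overlap (log2 fold change -0.85 ± 0.10 SE, adjusted p = 1.74e-10 with edgeR). The chaperone Psmg1 (ENSMUSG00000022913, chromosome 16) did the opposite, with 35.6 to 79.1 CPM in control eggs (median 57.7) and 106.2 to 162.3 in the knockout (median 120.9), also without overlap (1.14 ± 0.13 SE, adjusted p = 2.58e-11 with edgeR). These were the 2 members without overlap, where 3.5% of all genes had none. Psmb2 (ENSMUSG00000028837, chromosome 4) had 47.4 to 135.8 CPM in control eggs (median 59.1) and 32.1 to 340.8 in Dis3 cKO eggs (median 186.8), and most but not all knockout eggs lay above all control eggs. Psma5 had 14.7 to 60.2 and 0.137 to 106.2 CPM (medians 20.4 and 67.2). The lowest knockout values of Psmb2, Psma5, Psma2 and Psmd2 all came from oocyte 15. Without it 24 members were again called, of which 21 were the same: Psmb3, Psme3 and Psmf1 were no longer called, and Psmc3ip, Psmd1 and Psmg2 were. In a fit of these 2 groups alone 14 members were called, and Psmb5, Psmb6, Psmd14, Psme3 and Psmf1 were not among them. Under all 6 alternatives tried the called members were Psma1, Psma3, Psma5, Psma7, Psmb2, Psmc1, Psmd5, Psmd7, Psmg1 and Psmg3.

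**Figure D3:**
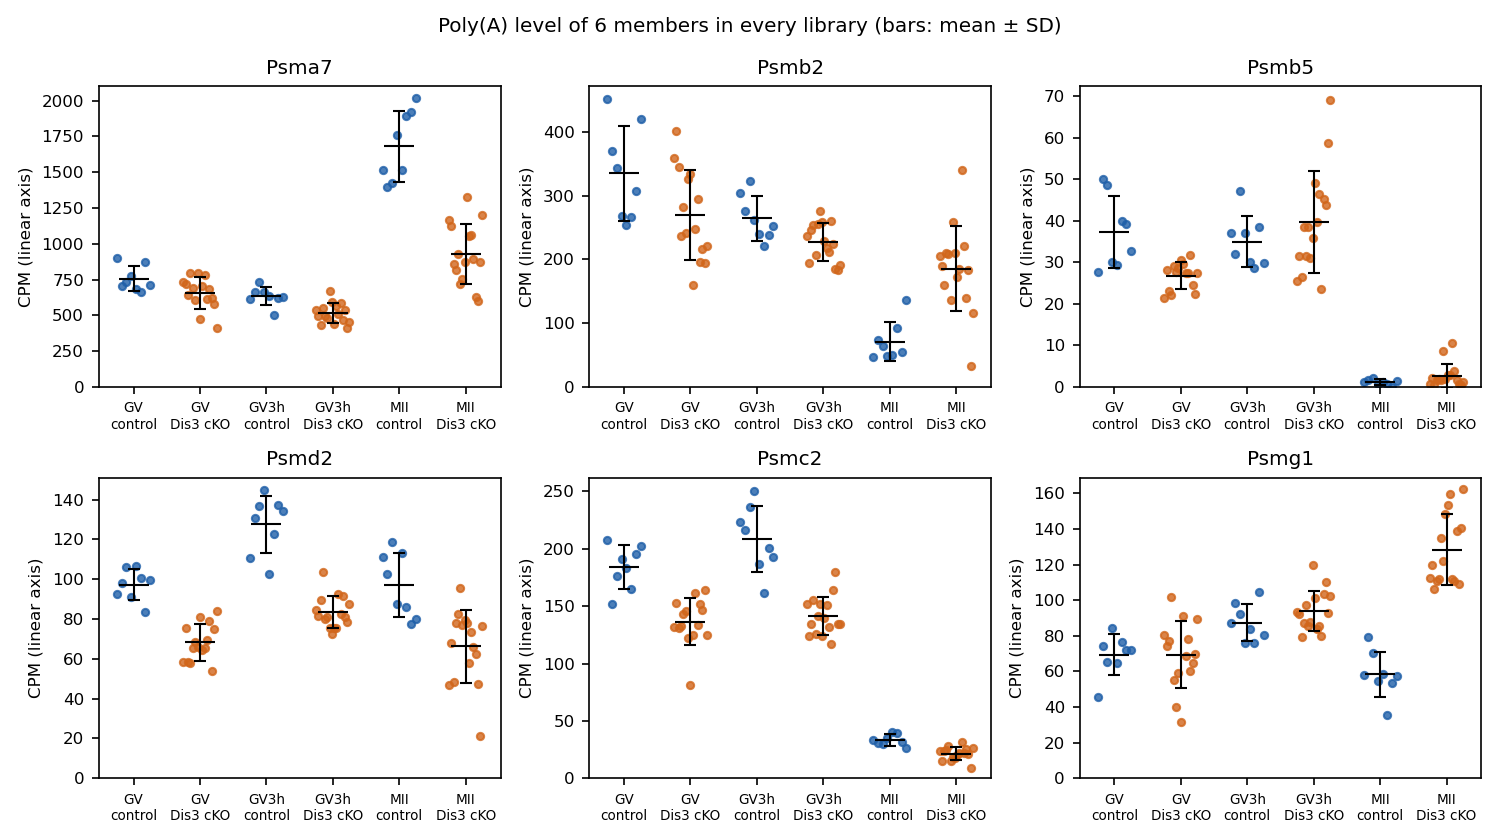
CPM of Psma7, Psmb2, Psmb5, Psmd2, Psmc2 and Psmg1 in every poly(A) library by stage and genotype, with group means and SDs on linear axes that start at 0. Psma7 rises and Psmb2, Psmb5 and Psmc2 fall from GV to MII, and by their means the Dis3 cKO eggs lie between the control eggs and the GV oocytes for Psma7 and Psmb2 but above both for Psmg1.

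Maturation itself was then compared between the genotypes. Between GV and MII, 30 members were lower and 9 higher in Dis3 cKO oocytes (all genes 38.5% and 24.8%, 63.3% together), and 28 of the 32 members lowered in controls (87.5%) were among the 30 (93.3%). Of all genes lowered in controls, 80.2% were lowered in the knockout, and they were 74.7% of those lowered there. The largest increases among called members were those of Psmd3 (1.94), Psmd1 (1.61), Psmd11 (1.13), Psma2 (1.12) and Psmg1. The largest decreases, beside Psme1, were those of Psmb1 (-3.57), Psmb5 (-3.29), Psmb7 (-3.27) and Psmb10 (-3.11), and the calls of Psmb10 and Psme1 were lost in a fit of the 2 groups alone. Under ERCC scaling 42 were lower and 2 higher, with the median gene at -1.505. On that scale Psmd11 (-0.092) and Psma2 (-0.042) were not called. The interaction test asked whether a member's Dis3 effect in MII differed from that in GV, which is also whether its maturation change differed between genotypes: 13 members were higher and 3 lower (all genes 9.28% and 3.88%), and the members' median was 0.46 beside 0.07. Psmb2 had a log2 change of -2.25 in control maturation and -0.54 in the knockout (interaction 1.70 ± 0.26 SE, adjusted p = 1.52e-06 with edgeR). Psmg1 was at -0.25 in controls, not called, and at 0.88 in the knockout, called higher (interaction 1.13 ± 0.17 SE, adjusted p = 2.5e-06 with edgeR). With ERCC scaling it was called lower in the knockout, at -0.39. Psmb5 was at -5.05 and -3.29 (interaction 1.76), and the interaction of Psma5 was 1.48. Dis3 cKO eggs 7 and 11 had 8.63 and 10.6 CPM of Psmb5, and the other Dis3 cKO eggs had 0.411 to 3.75. Eggs 7 and 11 were also the highest for Psmb4 (71.65 and 40.4 CPM) and Psmb7 (60.93 and 36.4). No alternative left these eggs out. Psma7 rose by 1.15 in controls and by 0.50 in the knockout (interaction -0.65 ± 0.15 SE, adjusted p = 0.0013 with edgeR) and Psme4 by 1.16 and 0.66 (interaction -0.50). Under ERCC scaling 32 members had a higher and 1 a lower interaction, the median gene stood at 0.68, and Psma7 and Psme4 were at 0.016 and 0.052, which is under that median.

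By role, all 7 beta ring genes, all 4 chaperones of 20S assembly and 10 of 11 19S non-ATPases had a positive interaction, of which 2, 2 and 3 were called. These genes share libraries and scaling, so their signs are not independent, and differences between roles were not tested. The ATPases were split, with Psmc4 (1.07) and Psmc6 (0.46) called higher and 2 of 6 negative. Other called members were Psmd5, Psma3, Psmd14 (0.69), Psmd4 (0.66), Psmd3 and Psmf1 (0.46). Psmg2 had an interaction of 3.35 but rests on 4 reads in control eggs, and Psme1 one of -3.96 that rests on eggs nearly all at 0. Without GV oocytes 6 and 8, 15 members were called, and without egg 15, 19 were. Psmd14, Psmd4, Psmf1 and Psmg2 were not called without a filter on low counts or in a fit of the compared groups alone. The members called under all 7 alternatives tried were Psma3, Psma5, Psmb2, Psmb5, Psmc4, Psmd5 and Psmg1.

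RiboMinus libraries do not select for a poly(A) tail, and in adult GV oocytes they gave few calls for the loss of Dis3: 2 members were higher and 2 lower, where 15.7% of all genes were higher and 12.4% lower. Psmd7 rose from 41.9 ± 3.20 to 55.1 ± 4.58 CPM (0.42 ± 0.07 SE, adjusted p = 0.000365 with edgeR) and Psmc3ip from 20.2 ± 1.55 to 28.6 ± 7.19. Psmd2 had 75.8 to 95.0 CPM in controls and 52.1 to 73.3 in the knockout, the only member without overlap (all genes 7.08%), with a log2 fold change of -0.38 ± 0.08 SE (adjusted p = 0.00177 with edgeR), and Psmb2 fell from 65.1 ± 9.14 to 46.0 ± 7.53 CPM. The 8 oocytes of each group carry 2 unexplained title tags, 4 oocytes each. For all 4 genes both tag means of the knockout lay on the same side of both tag means of the controls, though for Psmc3ip the knockout tags averaged 34.4 and 22.9 CPM and the control tags 19.6 and 20.9. The 4 genes were called from these same libraries, so this is no separate support. With counts summed per tag, 2 sums a group, edgeR called 0 members (3 had an unadjusted p under 0.05). With ERCC scaling the median gene was at -0.52, 27 members were lower and 0 higher, Psmd7 was at -0.12 and Psmc3ip at -0.0020.

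Adult RiboMinus and poly(A) GV libraries come from different oocytes, so their Dis3 effects can be set side by side. Psmd2 (-0.51 in poly(A), -0.38 in RiboMinus) was called lower in both. Psmd7 (0.31 and 0.42) was higher in both, with a call in poly(A) that several settings did not keep. Over the 44 members tested in both, 22 had the same sign and the correlation of log2 changes was 0.295, against 71.2% and 0.716 over 14752 genes, and the points of each correlation come from the same libraries. Psmc2, Psmc4, Psmd3 and Psmd4, called lower in poly(A) GV oocytes, were not called in adult RiboMinus oocytes, and Psmd4 stood at 230.5 ± 27.9 CPM in controls and 236.3 ± 28.7 in the knockout. With ERCC scaling Psmc2, Psmc4, Psmd3 and Psmd4 were called lower in both assays. Whether the 2 assays differ was not tested, since they were fitted apart.

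At p20 the single knockouts changed few proteasome genes with TMM scaling. In Dis3 cKO, Psmb2 alone was called (68.8 ± 8.31 to 49.9 ± 8.48 CPM, log2 fold change -0.46 ± 0.12 SE, adjusted p = 0.014 with edgeR), where 3.61% of all genes were higher and 3.76% lower, 7.37% together. Psmd14 was not called but was the only member without overlap, where 2.68% of all genes had none. It had 35.7 to 50.2 CPM in controls and 26.7 to 35.1 in Dis3 cKO. Psmd14 was called lower with ERCC scaling and in a fit of these 2 groups alone. In Exosc10 cKO, Psmb11 (4.12 ± 1.96 to 9.91 ± 4.32 CPM, 1.26 ± 0.28 SE, adjusted p = 0.00312 with edgeR) and Psmd9, a chaperone of 19S assembly (61.5 ± 12.02 to 85.5 ± 13.9 CPM, 0.47 ± 0.11 SE, adjusted p = 0.00449), were higher and 0 lower, where 3.95% and 3.5% of all genes were higher and lower, 7.45% together. The Dis3 effect of no member differed between adult and p20 oocytes by edgeR (0 of 44 called, 3 at an unadjusted p under 0.05, all genes 5.34% higher and 3.98% lower), while DESeq2 called Psmb11 and Psmd14. With counts summed per title tag edgeR called 0 members in either single knockout (2 in Dis3 cKO and 3 in Exosc10 cKO had an unadjusted p under 0.05). With ERCC scaling 9 members were lower and 0 higher in Dis3 cKO, and Psmb2 was among the 9. In Exosc10 cKO that scaling called Psmb11 alone, and the call of Psmd9 was lost.

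With both ribonucleases lost, 5 of 6 ATPase genes of the 19S base were lower and 3 of 4 chaperone genes of 20S assembly higher, while the number of calls was about what the whole transcriptome showed. In dcKO oocytes 13 of 44 members were lower and 9 higher, where 27.1% of all genes were lower and 26.6% higher, 53.7% together, and the members' median was -0.09 beside -0.0061. The lowered ATPases stood at -0.36 to -0.73, with Psmc6 (-0.08) not called, and the lower genes included the 19S subunits Psmd4, Psmd11, Psmd1 and Psmd12. The raised chaperones were Psmg1, Psmg2 and Psmg3, with Psmg4 (-0.16) not called, and the lid subunits Psmd7, Psmd13 and Psmd6 were higher. With counts summed per title tag, and likewise with ERCC scaling, Psmg3 was the only chaperone of 20S assembly still called and 4 ATPases were (Psmc3 was lost with the sums and Psmc4 with ERCC scaling). Of the beta ring, Psmb2 (0.39) and Psmb3 (0.56) were higher, and the catalytic Psmb5, Psmb6 and Psmb7 were not called (0.43, -0.19 and -0.28). Psmb2, Psmb3, Psmd6 and Psmd12 were not called with sums per tag or with ERCC scaling. The members called under all 6 alternatives tried were Psmb11, Psmc1, Psmc2, Psmc5, Psmd1, Psmd4, Psmd7, Psmd11, Psmd13, Psmg3 and Psmc3ip. The alpha ring held 1 call, Psma7 (-0.30). Psmf1 (-0.34), Psme3 (-0.29) and Psmc3ip (-0.88) were lower, and Psme4 (-0.17) and Psmd14 (0.06) were not called.

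Psmb11 showed the largest change. It had 1.87 to 7.17 CPM in p20 controls (median 4.01) and 11.8 to 28.3 in dcKO oocytes (median 21.6), without overlap (log2 fold change 2.31 ± 0.29 SE, adjusted p = 4.2e-08 with edgeR). Exosc10 cKO oocytes lay between, at 4.88 to 18.6 CPM, and Dis3 cKO oocytes at 1.29 to 4.46, and dcKO was above each of them (2.54 and 1.05, adjusted p = 1.37e-08 and 0.00182 with edgeR). Psmb11 (ENSMUSG00000072423) lies on chromosome 14 at 54625310-54629556 (GRCm38.p6), with 7314 bases between it and Psmb5, which was not called in dcKO against controls. Psmd7 (ENSMUSG00000039067, chromosome 8) had 33.6 to 42.5 CPM in controls and 55.1 to 122.4 in dcKO (medians 40.4 and 85.9), again without overlap (1.13 ± 0.12 SE, adjusted p = 3.56e-09 with edgeR). Psmd13 rose from 7.74 ± 2.68 to 19.7 ± 6.08 CPM, Psmg2 from 1.48 ± 1.03 to 3.28 ± 0.888 and Psmg3 from 4.08 ± 1.26 to 7.53 ± 1.49. Psmd13 overlaps an annotated pseudogene, and how reads of overlapping genes were counted is not given in the sources used here.

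**Figure D4:**
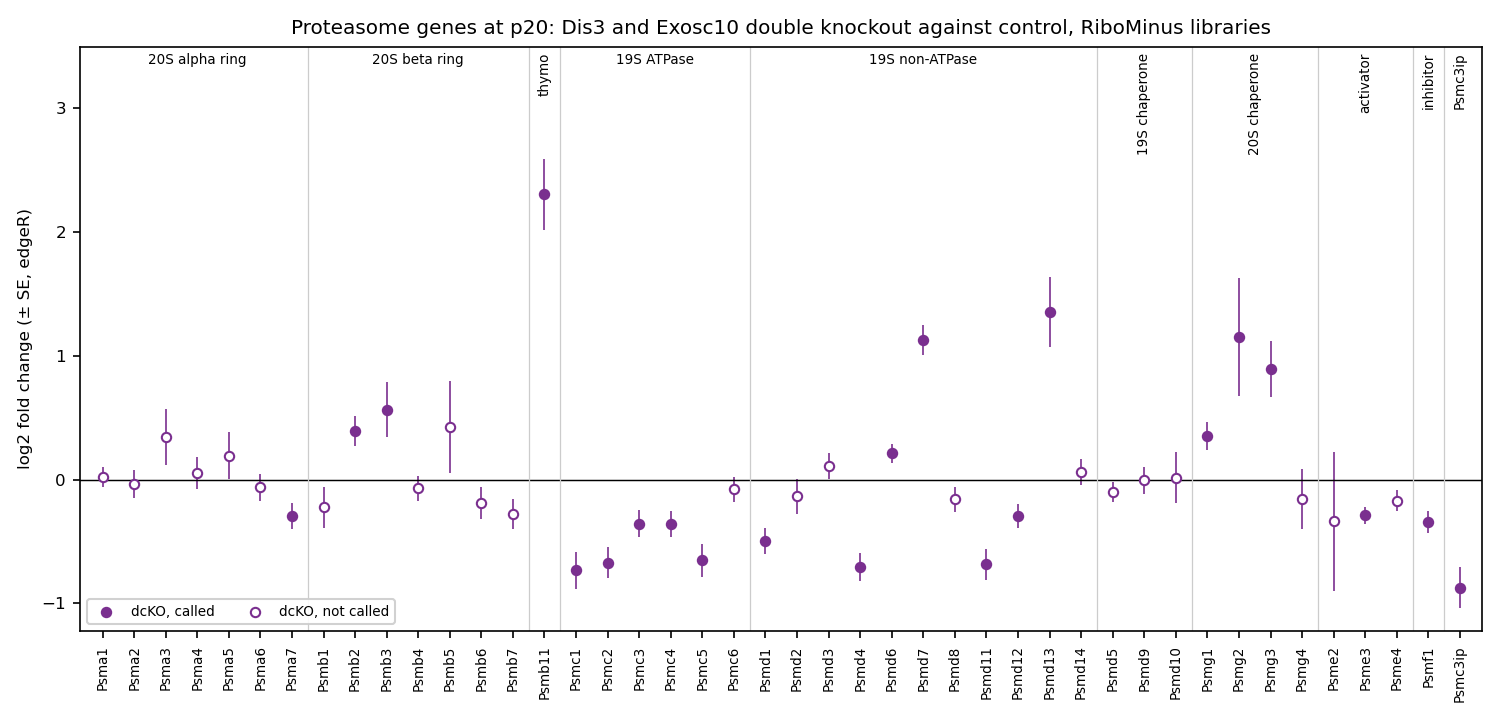
Log2 fold change between p20 dcKO and control oocytes with its standard error for the 44 members tested in RiboMinus libraries, ordered by role. Filled points passed an adjusted p of 0.05. The ATPases lie at or under 0 and Psmb11, Psmd13, Psmg2, Psmd7 and Psmg3 lie highest.

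Among the lowered genes, Psmd4 (ENSMUSG00000005625, chromosome 3) had 134.8 to 190.4 CPM in p20 controls (mean 164.9) and 77.2 to 131.6 in dcKO (mean 100.3), without overlap (-0.71 ± 0.11 SE, adjusted p = 3.81e-06 with edgeR). Psmc5 had 53.6 to 76.9 and 31.4 to 52.0 CPM and Psmc3ip 16.5 to 26.1 and 6.90 to 15.8 CPM, also apart. With Psmb11 and Psmd7 these were the 5 members without overlap, where 19.6% of all genes had none. Psmc1 (43.2 ± 5.03 to 25.7 ± 9.15 CPM), Psmd11 (129.8 ± 26.1 to 80.0 ± 10.7) and Psmc2 (75.5 ± 10.0 to 46.99 ± 8.63) overlapped. In Dis3 cKO and Exosc10 cKO oocytes Psmd4 stood at 150.4 ± 20.2 and 148.5 ± 31.9 CPM, and dcKO oocytes were lower than either (-0.58 and -0.55, adjusted p = 8.08e-05 and 0.000153 with edgeR). With ERCC scaling the difference from Dis3 cKO was -0.27 and was not called. Both tag means of dcKO were apart from both of the controls for all 22 called members. These members were called from the same libraries, so this is no separate support. With counts summed per tag edgeR called 14. ERCC scaling, which put the median gene at -0.08, left 4 higher and 9 lower.

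**Figure D5:**
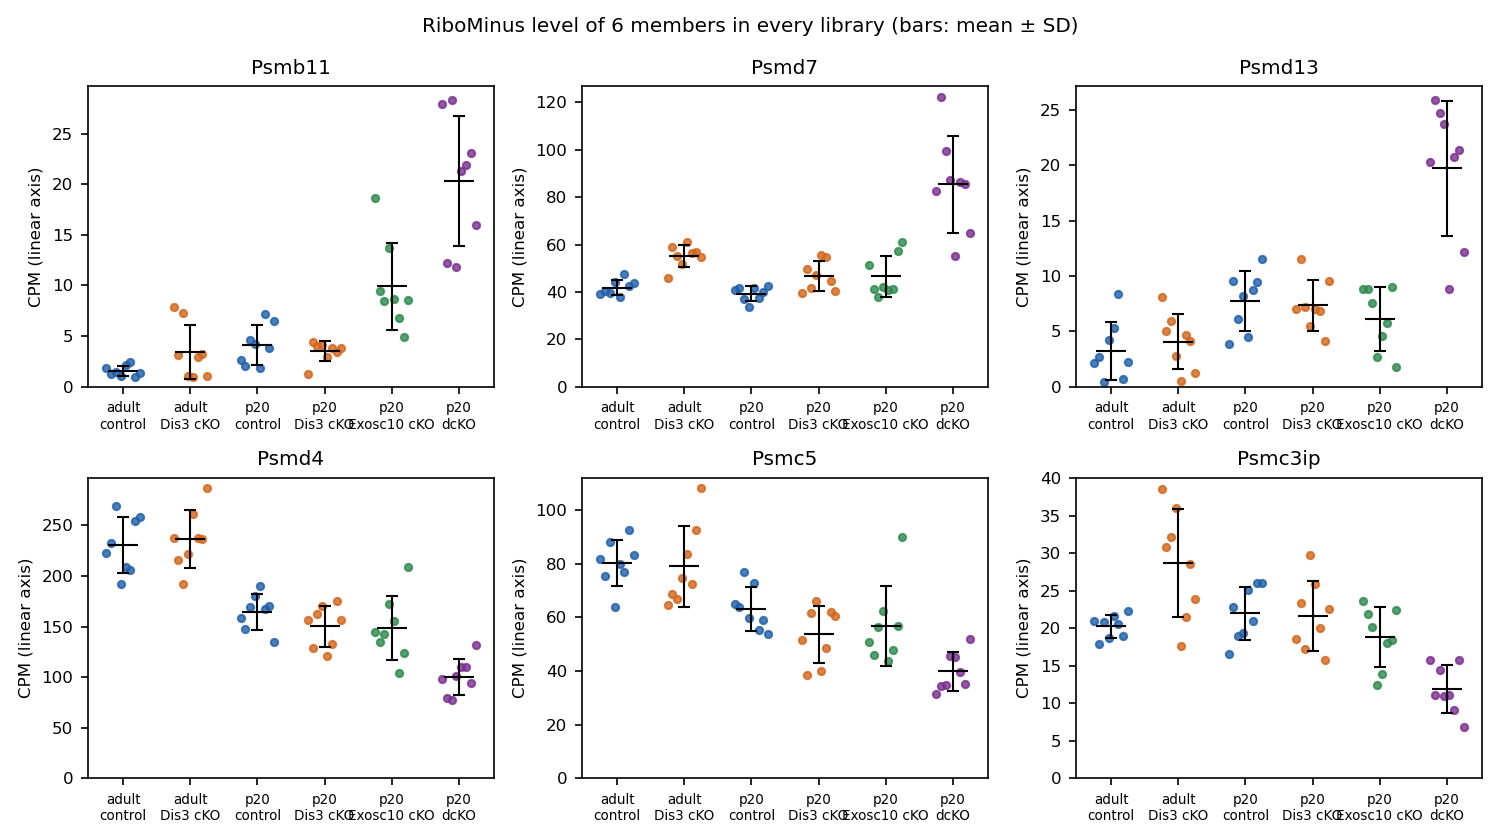
CPM of Psmb11, Psmd7, Psmd13, Psmd4, Psmc5 and Psmc3ip in every RiboMinus library by age and genotype, with group means and SDs on linear axes that start at 0. The p20 dcKO libraries are higher than p20 controls for Psmb11 and Psmd7 and lower for Psmd4, Psmc5 and Psmc3ip without overlap.

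Against Dis3 cKO, 11 members were higher and 10 lower in dcKO (all genes 26.0% and 25.5%, 51.5% together), and against Exosc10 cKO 9 were higher and 15 lower (24.2% and 25.0%, 49.2% together). Against Dis3 cKO the largest increases among called members were those of Psmb11, Psmg2 (1.45), Psmd13 (1.43), Psmg3 (1.05) and Psmd7 (0.88), and the largest decreases those of Psmc3ip (-0.86), Psmc1 (-0.60), Psmd4, Psmc2 (-0.50) and Psmd11 (-0.48). Against Exosc10 cKO they were those of Psmd13 (1.69), Psmg2 (1.56), Psmb5 (1.10), Psmb11 and Psmd7 (0.89), and of Psmc3ip (-0.65), Psmc2 (-0.59), Psmc1 (-0.58), Psmd1 (-0.57) and Psmd4. The increases of Psmb11, Psmg2, Psmd13 and Psmd7 were called under all 6 alternatives in both comparisons, and that of Psmb5 was not. Psmb2 was lower than controls in Dis3 cKO, a call lost with sums per tag, and higher in dcKO, a call lost with sums per tag and with ERCC scaling. It had 49.9 ± 8.48, 68.8 ± 8.31 and 89.7 ± 13.4 CPM in Dis3 cKO, control and dcKO, and dcKO and Dis3 cKO did not overlap (0.85 ± 0.12 SE, adjusted p = 7.29e-07 with edgeR). This difference was called under all 6 alternatives tried. Under ERCC scaling the split against Dis3 cKO was 12 higher and 1 lower with the median gene at 0.26. The summed CPM of the members was 3468 ± 254.0 in p20 controls, 3281 ± 266.9 in Dis3 cKO, 3482 ± 251.8 in Exosc10 cKO and 3050.0 ± 152.2 in dcKO, which is within 1 SD of controls for the single knockouts.

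Between ages, 9 members were higher and 4 lower in adult GV than in p20 control RiboMinus oocytes (all genes 8.69% and 10.4%). Psmd9 (97.5 ± 10.8 against 61.5 ± 12.02 CPM, 0.66 ± 0.11 SE, adjusted p = 8.77e-06 with edgeR) and Psmd4 (230.5 ± 27.9 against 164.9 ± 17.8) rose most among the called members, followed by Psmb6 (0.41), Psma7 (0.35) and Psmc5 (0.34). Psmg2 (-1.56), Psmb11 (-1.40), Psmd13 (-1.24) and Psmc6 (-0.36) were lower. The adult and p20 libraries carry different title tags, so age and library set cannot be told apart. The summed blood and immune markers lay at 7.943 to 31.28 CPM in adult controls and 1.346 to 3.509 in p20 controls, and the granulosa and cumulus markers at 83.98 to 130.5 and 128.9 to 172.2, and their part in these results was not tested. Of the blood and immune markers only H2-Aa and Cd68 averaged at least 1 CPM in adult controls, and H2-Aa alone in p20 controls. With counts summed per tag edgeR called 0 (12 had an unadjusted p under 0.05). With ERCC scaling the median gene was at -1.69, and 43 members were lower and 0 higher. Gene counts per ERCC count were 335.6 to 487.4 in adult controls and 1043 to 1600 in p20 controls. Whether equal amounts of ERCC RNA were added at both ages was not tested.

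Other genes of the pathway, a list of 31 that includes ubiquitin genes, shuttling factors and regulators, were read beside the members. In control maturation 14 were lower and 9 higher (all genes 35.8% and 22.7%), with a median of -0.02. The lower ones included the ubiquitin genes Rps27a (-4.92) and Ubb (-3.15), the proteasome maturation factor Pomp (-1.68) and the 19S subunits without a Psm name, Adrm1 (-2.53) and Sem1 (-2.003). In MII Dis3 cKO eggs Sem1 (1.79) and Pomp (0.94) were higher, among 7 higher and 8 lower (all genes 27.3% and 14.8%). In GV oocytes the transcription factor Nfe2l2 (-0.86) and the ubiquitin-activating enzyme Uba1 (-0.34) were among 4 lowered, with 1 raised (all genes 8.33% and 13.6%). Nfe2l1, the factor known to induce proteasome genes when the proteasome is inhibited, was higher in MII Dis3 cKO eggs (0.34) and lower in p20 dcKO oocytes (-0.26). In dcKO 13 of the 31 were lower and 2 higher (all genes 27.1% and 26.6%), with a median of -0.18 beside -0.0061 for all genes, including Ngly1 (-0.77), Ubqln1 (-0.67) and Uba1 (-0.46).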

How the data were processed

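Gene counts are whole numbers deposited by the authors for each library and were used as deposited; per the submitters' processing notes, reads were handled with cutadapt 2.5, STAR 2.7.2a, HTSeq 0.9.1 and the mm10 build, in no stated order or role. Use of strand is not given in the sources used here. The deposited CUT&Tag lists give a signal per peak for each library, and SEACR is named in the submitters' processing notes; the authors' total signal served only to filter peaks in an alternative. Per the series' design text, CUT&Tag reads were sampled to an equal number.

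Counts were tested with edgeR 4.0.16 in R 4.3.3 by its quasi-likelihood F test after TMM scaling and filterByExpr, with Benjamini-Hochberg adjustment over all genes and a threshold of 0.05. The 71 poly(A) libraries shared 1 fit, the 16 adult RiboMinus libraries and the 32 p20 libraries had a fit each, and contrasts across ages used all 48. The SE of a log2 fold change is its size over the root of F. The fits were tested on simulated data. A first requirement on the share of 2-fold changes called was met by the poly(A) fit but not by the RiboMinus fits and was then dropped, so changes of that size can be missed more often in RiboMinus data. Alternatives were DESeq2 1.42.0, ERCC scaling, no filter, fits of the compared groups alone, a replicate block, sums per title tag, leaving out MII Dis3 cKO oocyte 15, which earlier results had shown to stand apart, and, chosen after seeing the data, leaving out GV Dis3 cKO oocytes 6 and 8. The files give no molecular identifiers.

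The members and gene lists were chosen with earlier results of these data known. Named are all called members where 10 or fewer, otherwise the 5 with the largest changes in each direction, and in addition, in the comparisons where their values are given, the catalytic and immunoproteasome subunits, Psma8, Psmb11, Psmc3ip, Psmd4, Psmd14, Psme3, Psme4 and Psmf1. Without Psmc3ip, 1 call fewer was made in GV3h Dis3 cKO (17), control and Dis3 cKO maturation (37 and 38), adult Dis3 cKO (3), and dcKO against control, Dis3 cKO and Exosc10 cKO (21, 20 and 23). Other pathway genes are named where called, as examples. Values of some listed genes are not reported here. Levels are not compared between genes, since no exon lengths were used. Of the 50 members, 14 overlap another RefSeq gene, 8 of them a protein-coding one, and their counts are uncertain to that extent.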

Additional observations from a re-analysis of the deposited data

Results flagged for a closer look

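In 7 of 108 groups examined, 1 library lay far from the others of its group, where chance gives about 1 in 20. These were the lowest summed member CPM in GV3h controls (6244 CPM), the highest Psmb11 in MII controls (3.47 CPM), the highest Psma7 (147.7 CPM) and Psmg1 (57.9 CPM) in p20 Exosc10 cKO, the lowest Psmb2 (45.0 CPM) and the highest Psmc2 (105.8 CPM) in adult controls, and the highest Psmc2 in p20 dcKO (64.4 CPM).

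The effect of Dis3 loss differed between MII and GV by edgeR's interaction term, at an adjusted p under 0.05, with these log2 differences: Psmg2 3.35, Psmb5 1.76, Psmb2 1.70, Psma5 1.48 and Psmg1 1.13 were higher in MII, and Psme1 -3.96, Psma7 -0.65 and Psme4 -0.50 were lower. Psmg2 and Psme1 rest on few reads in eggs. The highest Psmb5 values of Dis3 cKO eggs came from eggs 7 and 11.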

How the results depend on the processing

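Counts of called members moved by more than 1.5 times in these cases. With ERCC scaling they were 11 (18 with TMM) in GV3h Dis3 cKO, 0 (1) in control GV3h against GV, 33 (16) for the MII minus GV interaction, 27 (4) in adult Dis3 cKO, 9 (1) in p20 Dis3 cKO, 1 (2) in Exosc10 cKO, 13 (22) in dcKO, 13 (21) in dcKO against Dis3 cKO and 43 (13) between ages. With fits of the compared groups alone they were 32 in GV3h Dis3 cKO, 14 (24) in MII Dis3 cKO, 9 in control GV3h, 3 (0) for the GV3h interaction and 2 in p20 Dis3 cKO. With counts summed per title tag they were 0 in adult Dis3 cKO, p20 Dis3 cKO, Exosc10 cKO and between ages, 14 in dcKO, 12 against Dis3 cKO and 15 (24) against Exosc10 cKO. DESeq2 called 3 in control GV3h and 2 (0) for the adult minus p20 interaction. The cause was not tested, except that sums per tag leave fewer samples. Per ERCC count the log2 difference of the summed level was -0.47 (-0.18 in CPM) in GV, 0.26 (-0.02) in MII, where it was 0.40 without oocyte 15, a value added after seeing the data, -2.05 (-0.19) in control maturation, -0.61 (-0.04) in adult and -0.41 (-0.08) in p20 Dis3 cKO. Pol II peaks within 250 bases of a start were listed for 10.3% of members in p20 controls (6.69% of all genes) and 13.5% in adult Dis3 cKO (5.56%). With peaks above the median total signal of each list, H3K27me3 shares were 5.55% of members in adult controls (17.2% of all genes).

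Signs of called members that turned did so under ERCC scaling: in control maturation Psma7 -0.71, Psmd1 -0.33, Psmd11 -0.91, Psmd3 -0.50, Psme4 -0.69 and Psme3 -1.48; in Dis3 cKO maturation Psma2 -0.042, Psmd11 -0.092, Psmg1 -0.39, Psma7 -0.69, Psmb3 -0.73, Psmd7 -0.98 and Psme4 -0.63; in MII Dis3 cKO Psme3 0.11; for the MII interaction Psma7 0.016 and Psme4 0.052; in adult Dis3 cKO Psmc3ip -0.0020 and Psmd7 -0.12; in dcKO against Dis3 cKO Psme3 0.012 and Psme4 0.018; and between ages all 9 raised members, Psma7 -1.34, Psmb6 -1.26, Psmb7 -1.36, Psmc5 -1.35, Psmd4 -1.21, Psmd8 -1.38, Psmd9 -1.04, Psme3 -1.41 and Psmf1 -1.46. Of the single genes with the largest changes, another 51 alternative values kept their sign without passing the threshold, and 518 kept both.

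Oocytes of different groups share title numbers. Same-numbered poly(A) oocytes did not deviate together (142 pairs, mean correlation 0.029, from -0.24 to 0.28), nor did those of p20 (48 pairs, mean 0.025, from -0.44 to 0.56), so the numbers were not taken as pairs. A replicate block gave 9 (10) calls in GV, of which 7 were among the 10, 14 (18) in GV3h, 13 of them shared, 20 (24) in MII Dis3 cKO, 19 shared, 13 (16) for the MII interaction, 9 shared, and 23 (22) in dcKO, 22 shared. Members named in the text that it did not call were Psmc6, Psmd12 and Psmd7 in GV, Psmb7 and Psmc4 in GV3h, Psmb3, Psme1, Psme3 and Psmf1 in MII, and Psmc6, Psmd14, Psmd3, Psme1, Psme4, Psmf1 and Psmg2 for the interaction. Without MII Dis3 cKO replicate 15, calls ranged from 19 for the MII interaction to 40 in Dis3 cKO maturation. In groups of 8 or more other libraries were not left out in turn.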
